A study of Mus musculus with 16 samples.

Results

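Distal H3K27ac peaks that held neither the EWSR1::ATF1 (EA1) fusion nor RNA polymerase II (RNAPOL2) were examined in mouse clear cell sarcoma (CCS) tumors. The class was chosen by overlap alone. A peak of the H3K27ac list was a member when it lay outside the 3 kb window around every transcription start site (TSS) and shared no base with a V5 peak or an RNAPOL2 peak. The rule selected 6263 of the 27552 H3K27ac peaks (22.7%, 95% Wilson interval 22.2 to 23.2). The deposited V5 list is shorter than the set of fusion sites the study describes, so a member is a peak without V5 in this list, and the longer set was not analysed here. The members were 55.5% of the 11276 distal H3K27ac peaks (54.6 to 56.5), and the label of the class, distal acetylation with neither polymerase nor fusion, restates that rule.

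The study performed chromatin immunoprecipitation followed by sequencing (ChIP-seq) on CCS tumors of mixed 129/SvJ and C57Bl/6 mice. The mice carried a V5-tagged human EA1 cDNA at Rosa26 behind a loxP-flanked stop cassette, and TATCre protein injected into the hindlimb at 4 weeks of age switched the fusion on. The 16 samples comprised 4 with anti-V5, 4 with anti-RNAPOL2, 4 with anti-H3K27ac and 4 of input, and each antibody is represented by 1 peak list without values per tumor. The methods name 1 more V5 and 1 more RNAPOL2 sample than the labels, and which samples entered each list is not stated. Every group carried the active fusion, no group lacked it, and the fusion was driven by the Rosa26 promoter in whichever hindlimb cells took up Cre. The tumors were processed whole, without a step that separated tumor cells from cells of the host. Whether a peak came from tumor or host cells cannot be told apart in these lists. All tests below therefore counted peaks, not tumors, and describe these lists.

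Acetylation of lysine 27 of histone H3 is deposited by CBP and p300 and marks active promoters and enhancers. Distal enhancers are short stretches of DNA that bind transcription factors and act on promoters that may lie far away, and active ones often recruit polymerase as well. The fusion protein takes its DNA-binding domain from ATF1, a factor of the CREB family that binds the palindrome TGACGTCA, whereas FOS and JUN dimers (AP1) bind TGAGTCA.

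The sequences below show what class members looked like around the factor motifs that the comparisons use. For each of 4 motifs they come from the member with the highest H3K27ac score that held the motif in its central 500 bp, with 30 bases on each side and the motif in capitals (GRCm38, the assembly that mm10 names, 5′ to 3′). The ATF/CREB palindrome was read from chr2:73509065-73509132 on the plus strand, in an intron of Wipf1, a regulator of actin assembly (score 659). The AP1 motif was read from chr4:134517025-134517091 on the plus strand, inside Aunip and outside its exons (score 1201). The E-box CAGCTG came from chr8:126826552-126826617 on the plus strand, in the lincRNA gene Gm31718 (score 897). The TEAD motif GGAATGT came from chr15:59680673-59680739 on the minus strand, in an intergenic peak nearest to Trib1, a pseudokinase gene (score 504).
ATF/CREB palindrome: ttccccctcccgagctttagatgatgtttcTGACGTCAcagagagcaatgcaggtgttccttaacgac
AP1: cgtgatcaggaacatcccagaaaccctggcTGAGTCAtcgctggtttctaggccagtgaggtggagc
E-box: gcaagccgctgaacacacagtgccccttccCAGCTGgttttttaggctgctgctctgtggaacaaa
TEAD: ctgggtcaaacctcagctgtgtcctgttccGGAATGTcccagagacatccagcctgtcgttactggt
These letters describe the reference genome under each peak and are not evidence that a factor was bound.

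Members were weakly scored and narrow. The H3K27ac score of the deposited list, whose scale the sources used here do not state, had a median of 82 in members (quartiles 57 and 129), 120 in the 2745 distal peaks with V5 and no RNAPOL2, 177 in the 1387 with RNAPOL2 and no V5, and 463 in the 881 with both. Member widths had a median of 950 bp (quartiles 670 and 1370), against 1260 bp, 1450 bp and 2890 bp in the same 3 classes. The share of distal peaks that were members fell across score quintiles from 75.7% in the lowest, through 69.4%, 62.0% and 49.5%, to 18.6% in the highest. Peaks with both V5 and RNAPOL2 took 0.665% of the lowest quintile and 30.4% of the highest. These values come from the lists that chose the members and are given without a test. Members covered 7.02 Mb, the largest sum of the 4 distal classes, since V5 without RNAPOL2 covered 4.28 Mb, both covered 3.23 Mb and RNAPOL2 without V5 covered 2.49 Mb.

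**Figure D1:**
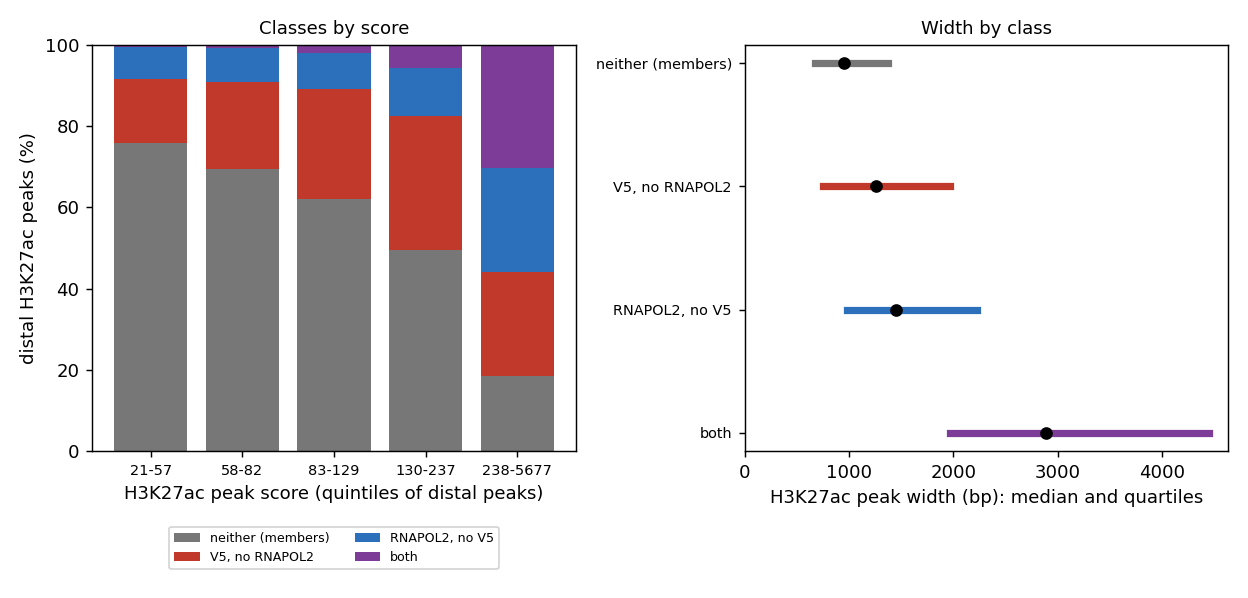
The left panel stacks the 4 distal classes as a percentage of distal H3K27ac peaks (y axis) in each score quintile (x axis), and the right panel shows the median width in bp (point) with its quartiles (bar) per class. Members make up 75.7% of the lowest quintile and 18.6% of the highest, and their median width of 950 bp lies below the 2890 bp of peaks with both.

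High scores did occur among members. The highest was 1988, at chr8:46686621-46687490, a peak of 870 bp inside the lncRNA gene Gm16675 and 52242 bp from the nearest TSS of Irf2, an interferon regulatory factor gene. No other H3K27ac peak lay within 12 kb of it, with the nearest V5 peak 51850 bp and the nearest RNAPOL2 peak 51640 bp away. The next was the Aunip peak shown above (score 1201), at chr4:134516181-134518070. A peak at chr2:166179101-166182620 had a score of 914 and lay 23438 bp from Sulf2, which encodes an extracellular sulfatase that trims heparan sulfate. The next in score, at chr8:126824191-126828670 (897, in Gm31718) and chr2:30742891-30745110 (833), were nearest to Tomm20 and 1700001O22Rik among coding genes. The widest member spanned 7920 bp at chr9:123926551-123934470, with the closest V5 peak 1000 bp and the closest RNAPOL2 peak 300 bp away. It had a score of 359 and was nearest to Ccr1, a chemokine receptor gene of myeloid cells. The next widest measured 6770 bp in Syt7 and 5710 bp in Rin3.

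Distances to both factors are given as the deposited lists show them, and sites of the longer set were not used. The gap to the nearest V5 peak had a median of 34210 bp (quartiles 9765 and 95280), and that to the nearest RNAPOL2 peak a median of 21680 bp (7920 and 57430). A V5 peak lay within 1 kb of 2.00% of members, within 12 kb of 28.4% and within 100 kb of 76.2%. For RNAPOL2 the shares were 1.47%, 34.7% and 86.1%. The rule fixes the lower end of these gaps, so they are given without a test. Just inside the rule stood 258 members that began within 500 bp beyond the TSS window, with a median score of 91, and just outside it stood 273 peaks without V5 or RNAPOL2 that reached less than 500 bp into the window, with a median score of 82. The 72 members with a V5 peak less than 500 bp away had a median score of 57, and the 1123 distal peaks that shared under 500 bp with V5 peaks had 82. For RNAPOL2 these groups counted 28 members (74.5) and 116 peaks (82).

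Members lay inside genes more often than distal peaks with V5 and no RNAPOL2 and were less often remote. Of the members, 61.9% (3878) overlapped a gene, 53.3% (3341) did so without touching an exon, and 38.1% (2385) were intergenic. The distance to the nearest TSS had a median of 12068 bp (quartiles 6460.5 and 23694.5), with 42.3% of members between 3 and 10 kb and 1.36% beyond 100 kb. Distal peaks with V5 and no RNAPOL2 were intragenic in 53.2%, an odds ratio of 1.43 (95% interval 1.31 to 1.57, Fisher's exact test, two-sided, Benjamini-Hochberg adjusted p = 7.10e-14). Over 50 kb from a TSS lay 7.41% of members (464) and 16.1% of those peaks (441), an odds ratio of 0.418 (0.364 to 0.480, adjusted exact p = 1.79e-32). Against distal peaks with RNAPOL2 and no V5 both differences ran the other way. Of those, 66.0% were intragenic (odds ratio 0.836, 0.740 to 0.945, adjusted exact p = 0.00789) and 4.40% lay over 50 kb from a TSS (odds ratio 1.74, 1.32 to 2.29, adjusted p = 7.73e-05). The intragenic difference from RNAPOL2 peaks turned with stricter lists, with an odds ratio of 1.58 (adjusted exact p = 1.57e-05) when only the upper 50% of V5 and RNAPOL2 peaks by score were used. The intragenic difference from V5 peaks did not pass among the upper 50% of H3K27ac peaks (odds ratio 1.05).

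Base composition separated the 3 classes further. At least 50% of the central 500 bp was G or C in 50.3% of members (3150), in 23.7% of distal peaks with V5 alone (651) and in 65.6% of those with RNAPOL2 alone, beside 10.6% of windows of the same length taken every 100 kb along the genome. The odds ratio was 3.25 against V5 peaks (2.94 to 3.60, adjusted p = 7.71e-126) and 0.530 against RNAPOL2 peaks (0.470 to 0.599, adjusted p = 2.82e-24, Fisher's exact test, two-sided). The middle base was repeat-masked in 13.8% of members, less often than in V5 peaks (16.5%, odds ratio 0.813, adjusted exact p = 0.00266) and RNAPOL2 peaks (17.2%, odds ratio 0.776, adjusted p = 0.00355), and in 36.6% of genome windows. The repeat difference from V5 peaks turned to an odds ratio of 1.29 (adjusted exact p = 0.00335) when V5 or RNAPOL2 had to cover the middle base of the acetylated peak, and that from RNAPOL2 peaks did not pass (0.854). Among the upper 50% of H3K27ac peaks neither repeat difference passed (0.914 and 0.913).

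**Figure D2:**
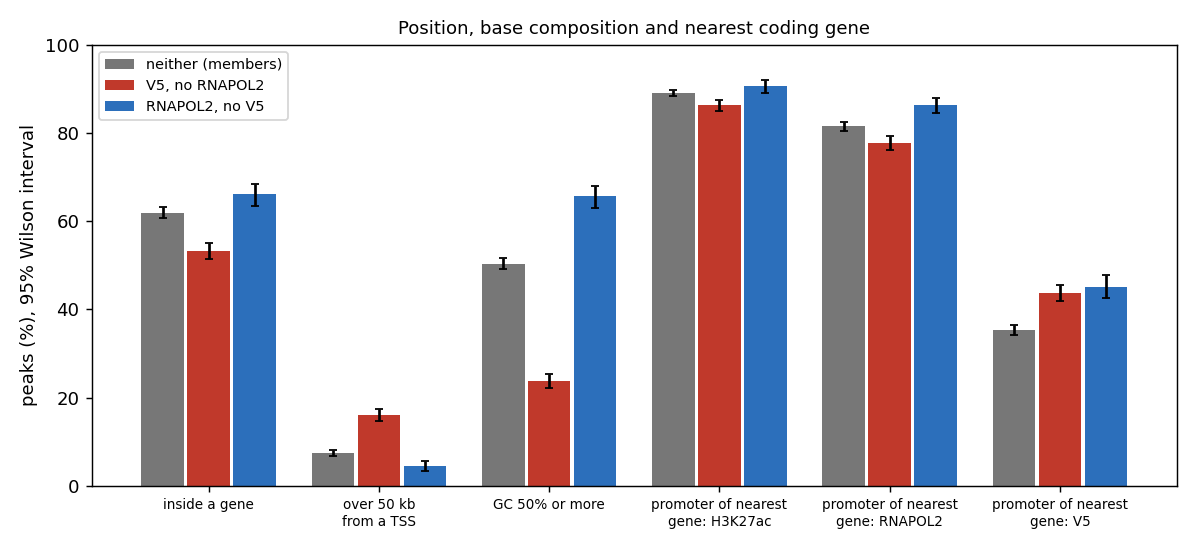
Bars give the percentage of peaks (y axis, from 0) with each feature for members, distal peaks with V5 and no RNAPOL2, and distal peaks with RNAPOL2 and no V5, and error bars are 95% Wilson intervals. GC-rich centers stand at 50.3% in members, between 23.7% and 65.6% in the other classes, and V5 at the promoter of the nearest gene is lowest in members at 35.3%.

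The ATF/CREB palindrome was rare in members. TGACGTCA occurred in the central 500 bp of 30 members (0.479%, 0.336 to 0.683), of 59 V5 peaks without RNAPOL2 (2.15%, 1.67 to 2.76), of 1.76% of all H3K27ac peaks and of 0.257% of genome windows. The odds ratio against V5 peaks was 0.219 (0.141 to 0.341, Fisher's exact test, two-sided, adjusted p = 1.33e-11). The other sequences of the form TGANNTCA were found in 19.9% of members (1244) and 28.1% of V5 peaks (772), an odds ratio of 0.633 (0.571 to 0.703, adjusted exact p = 1.21e-16), and in 20.8% of genome windows. Strings of more than 4 TGA or TCA units with gaps of at most 5 bp, which can contain the other TGA motifs, occurred in 2.91% of members and 4.85% of V5 peaks (odds ratio 0.588, adjusted exact p = 2.60e-05), beside 4.33% of genome windows. The study found the palindrome, the TGANNTCA forms, the AP1 motif and the strings recurrent in its own fusion sites. The palindrome is also the site of the ATF1 domain that the fusion keeps. Motif frequency in V5 peaks is thus not independent of how peaks and motifs were chosen, and these tests describe the lists only. By interior dinucleotide, TGACATCA stood in 3.18% of members and 7.21% of V5 peaks, while TGAGCTCA stood in 2.17% and 2.22%, which is given without a test. Among the upper 50% of H3K27ac peaks by score the palindrome difference did not pass (odds ratio 0.316, adjusted exact p = 0.102).

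AP1 motifs, by contrast, did not differ between members and V5 peaks past the threshold. TGAGTCA occurred in 17.5% of members (1093), 16.1% of V5 peaks (441) and 13.99% of RNAPOL2 peaks, beside 7.58% of genome windows and 11.1% of all H3K27ac peaks. The odds ratio was 1.10 against V5 peaks (0.979 to 1.25, adjusted p = 0.154) and 1.30 against RNAPOL2 peaks (1.10 to 1.53, adjusted p = 0.00355, Fisher's exact test, two-sided). When a V5 or RNAPOL2 peak had to cover the middle base of the acetylated peak to count, which raised the members to 7884, the AP1 odds ratio against V5 peaks turned to 0.685 (adjusted exact p = 2.09e-07), and when the whole peak was read it was 0.792 against V5 peaks (adjusted p = 4.34e-06) and 0.827 against RNAPOL2 peaks. It passed above 1 against V5 peaks with the upper 50% of V5 and RNAPOL2 peaks (1.15, adjusted exact p = 0.0445) and within score quintiles (1.20), and against RNAPOL2 peaks it did not pass by the middle base (1.17) or in the central 200 bp (1.21).

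Of the 10 motifs of other factor families, 4 were more frequent in members than in V5 peaks, 1 was less frequent and 5 did not pass. SP/KLF factors bind GC boxes, and GGGCGGG occurred in 9.05% of members and 4.37% of V5 peaks (odds ratio 2.18, 1.78 to 2.67, adjusted exact p = 6.29e-15). The AP-2 motif GCCNNNGGC was found in 18.01% and 11.8% (odds ratio 1.65, 1.44 to 1.88, adjusted exact p = 1.74e-13), the ETS motif AGGAAGT in 17.9% and 13.4% (1.41, 1.24 to 1.60, adjusted p = 2.96e-07), and the E-box CAGCTG of bHLH factors in 35.0% and 28.4% (1.36, 1.23 to 1.498, adjusted p = 2.17e-09). TCATGTG, the E-box of MITF, the master factor of melanocytes, ran the other way with 7.70% and 9.62% (0.784, adjusted p = 0.00528, Fisher's exact test throughout). GC content moved with these results. Within quintiles of GC content the E-box (1.07), AP-2 (1.10) and MITF (0.861) odds ratios no longer passed, whereas ETS (1.32) and SP/KLF (1.36) did. ETS (0.903) and the E-box (0.982) turned over whole peaks, and among the upper 50% of H3K27ac peaks ETS (1.26), the E-box (1.30) and MITF (0.705) did not pass.

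Against RNAPOL2 peaks without V5, fewer motifs differed. SP/KLF motifs were less frequent in members (9.05% against 19.3%, odds ratio 0.418, 0.356 to 0.490, adjusted exact p = 7.20e-24), and so were AP-2 motifs (18.01% against 21.1%, odds ratio 0.824, 0.713 to 0.952, adjusted p = 0.0158). TEAD motifs (GGAATGT), bound by the partners of YAP and TAZ, were more frequent in members (8.62% against 6.42%, odds ratio 1.38, 1.09 to 1.74, adjusted p = 0.0120, Fisher's exact test, two-sided). The palindrome did not differ past the threshold (0.479% against 0.865%, odds ratio 0.552, 0.282 to 1.08, adjusted exact p = 0.154), nor did its variants (19.9% against 18.6%, 1.08, 0.935 to 1.26, adjusted p = 0.355). Both passed under other settings, the palindrome over whole peaks (0.530) and the variants in opposite directions, at 1.19 with coding TSSs, 1.19 by the middle base and 1.62 with the upper 50% of V5 and RNAPOL2 peaks but 0.750 over whole peaks. The TEAD odds ratio turned to 0.730 over whole peaks and did not pass by the middle base (1.18), in the central 200 bp (1.40) or within score quintiles (1.27). The AP-2 odds ratio turned to 1.06 within GC quintiles and to 1.04 among the upper 50% of H3K27ac peaks. In all, 8 of the 14 motifs passed against V5 peaks and 4 against RNAPOL2 peaks. The remaining motifs, RUNX (TGTGGTT, 11.5% of members), C/EBP (TTGCNNAA, 19.2%), SOX (AACAATG, 6.90%) and MEF2 (TAAAAATAG, 1.60%), passed in neither comparison. None of the 14 motifs was present in 13.9% of members (870). Both strands were searched throughout.

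**Figure D3:**
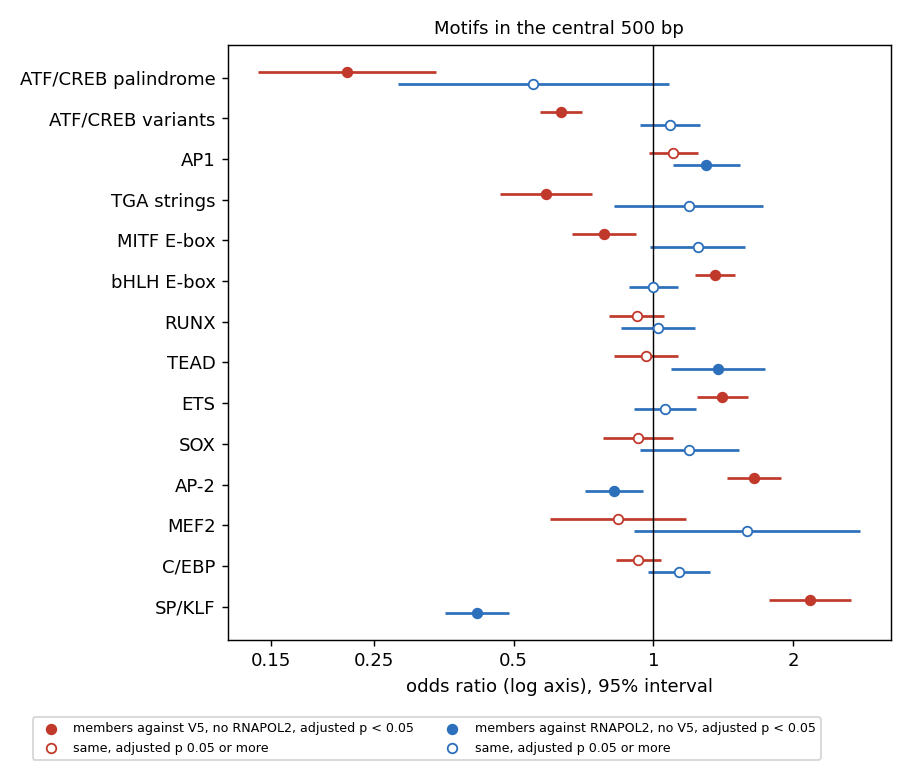
Each row is a motif, and points give the odds ratio (log axis) of members against distal peaks with V5 alone (red) or RNAPOL2 alone (blue), with 95% intervals as lines and filled points where the adjusted p was under 0.05. The ATF/CREB palindrome lies at 0.219 against V5 peaks, and SP/KLF lies on opposite sides of 1, at 2.18 and 0.418.

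GC-rich motifs and AP1 motifs were more frequent at the upper end of the members' own scores, which is given without a test. From the lowest to the highest score quartile group, AP1 motifs occurred in 15.1%, 16.9%, 19.3% and 19.3% of members SP/KLF motifs in 7.49%, 8.49%, 9.28% and 11.5%, and AP-2 motifs in 15.6%, 18.2%, 18.01% and 21.02%. TGANNTCA variants stood at 20.1%, 19.4%, 20.1% and 19.8%.

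Members were usually nearest to a coding gene whose promoter was acetylated and held polymerase. An H3K27ac peak lay at the promoter of the nearest coding gene for 89.0% of members (5577), an RNAPOL2 peak for 81.5% (5103) and a V5 peak for 35.3% (2210). Of all 21938 coding genes, 58.6%, 53.5% and 16.6% had such promoter peaks. Counted once per gene, the 3241 genes nearest to a member had them in 85.8%, 76.7% and 30.2%. The commonest state was H3K27ac with RNAPOL2 and no V5 (47.2%, 2954 members), followed by all 3 (33.9%, 2124). Promoter H3K27ac was more frequent for members than for V5 peaks without RNAPOL2 (86.3%, odds ratio 1.29, 1.13 to 1.48, Fisher's exact test, two-sided, adjusted p = 0.000453), although not with 1 peak per gene (1.16) or among the upper 50% of H3K27ac peaks (1.10). Against RNAPOL2 peaks without V5 (90.6%) it did not pass (0.841, 0.690 to 1.02, adjusted exact p = 0.144). It passed there without chromosomes X and Y (0.777, adjusted exact p = 0.0263), and it lay above 1 with a 1 kb window (1.01), coding TSSs (1.06) and the upper 50% of V5 and RNAPOL2 peaks (1.15). Promoter V5 and RNAPOL2 come from the lists that chose the members and are given without a test. The promoter of the nearest gene held V5 for 43.7% (1200) of V5 peaks without RNAPOL2 and 45.1% (626) of RNAPOL2 peaks without V5, and it held RNAPOL2 for 77.7% and 86.3%. The nearest gene is a matter of distance, and in 41.6% of members (2608) it was not the gene of the nearest TSS of any kind.

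At least 1 member was nearest to 3241 coding genes, 14.8% of all. Of these, 1905 had 1 member, 1105 had 2 to 4 and 231 had 5 or more. Coding genes with promoter H3K27ac were nearest to a member in 21.6% (2780) and those without it in 5.07% (461). For 1927 of the 3241 genes (59.5%) members were the only nearest distal H3K27ac peaks. Members shared 884 genes with V5 peaks without RNAPOL2, which was 27.3% of the genes near members and 59.8% of the 1479 genes near such V5 peaks. Gene length moved with the member count, since the median length was 17.4 kb over all coding genes, 44.6 kb over genes near a member and 114 kb over genes near 5 or more.

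The 10 genes with the most members, with ties ordered by the summed score of the members, spanned 86.5 kb (Rxra) to 1504 kb (Pde4d). Ttc28 was left out by this order, although its 11 members equal those of Rxra, Zeb2 and Kcnma1. Tshz2, which encodes a zinc-finger transcription factor, had 17 members, all inside the gene and scored 27 to 192, beside 12 peaks with V5 alone and 5 with both. Etv6, an ETS-family repressor gene, had 15 members (scores 34 to 212) and 2 peaks with V5 alone. Tbc1d1, which encodes a Rab GTPase-activating protein of glucose uptake, had 15 (49 to 450) and 1. Cmip had 13 (27 to 384), of which 6 held AP1 motifs, and the zinc-finger gene Bnc2 had 13 (34 to 226). Rxra, the gene of retinoid X receptor alpha, had 11 members (41 to 222) and 3 peaks with RNAPOL2 alone. Kcnma1, a potassium channel gene, had 11 members (34 to 171) and 10 peaks with V5 alone. Pde4d, a cAMP phosphodiesterase gene, had 13 members with scores of 27 to 140, and differed in that 18 peaks with both, 10 with RNAPOL2 alone and 8 with V5 alone were also nearest to it. All 10 of these genes had H3K27ac and RNAPOL2 at a promoter, as did Ttc28, and 5 (Tshz2, Etv6, Cmip, Bnc2 and Pde4d) also had V5 there.

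Zeb2, Rad51b and Tbc1d1 had no distal H3K27ac peak with RNAPOL2. Zeb2, which encodes a repressor of epithelial genes that acts in neural crest and mesenchyme, had 11 members and no distal H3K27ac peak of another class. The lowest score was 44, the median 101 and the highest 273, the last at chr2:45194651-45198250, 77256 bp from the promoter and 23920 bp from the nearest V5 peak. A single member lay inside Zeb2, 9 lay up to 128506 bp upstream, and the last was 1253226 bp away. Rad51b, a gene of homologous recombination repair, had 15 members inside it, 272 to 357 kb from its TSS. Their scores ran from 41 to 203. The nearest V5 peaks lay 44860 to 99860 bp from these members and the nearest RNAPOL2 peaks 64970 to 149700 bp. Beside them, 3 peaks with V5 alone were nearest to Rad51b.

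**Figure D4:**
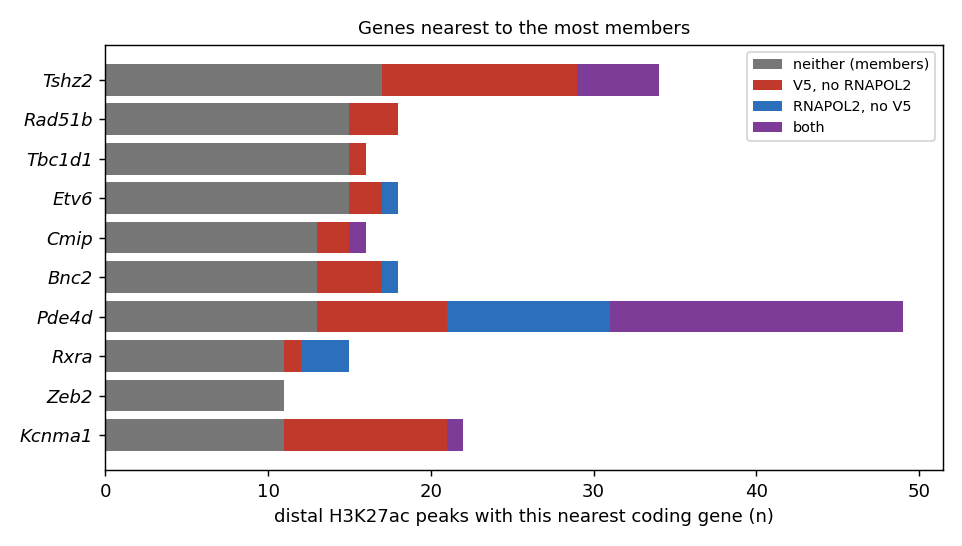
Stacked bars count the distal H3K27ac peaks nearest to each of the 10 coding genes with the most members, split by class (x axis, number of peaks). Zeb2 shows 11 members only, while Pde4d shows 13 members beside 18 peaks with both V5 and RNAPOL2.

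Members occurred both alone and in clusters. After neighboring H3K27ac peaks no more than 12 kb apart were stitched together, 30.3% of members (1900) stood alone and 48.9% (3061) lay in regions of 3 or more peaks. The region of a member held a V5 peak in 32.0% (2007), an RNAPOL2 peak in 39.9% (2496) and neither in 50.3% (3149). Of the 4415 regions with a member, 2284 (51.7%) consisted of members alone, a count that includes the 1900 members that stood alone. Only 102 of the 2450 regions with 3 or more peaks did so, and 98 of these spanned no V5 or RNAPOL2 peak at all. The region with the most members was chr12:79599851-79649710 in Rad51b, where all 12 peaks were members. A region of 17 peaks at chr2:27671351-27786950 over Rxra had 10 members, 1 V5 peak and 5 RNAPOL2 peaks, and a region of 16 at chr12:86769731-86837180, nearest to Irf2bpl and Lrrc74a, had 9 members, 2 V5 peaks and 5 RNAPOL2 peaks. The next regions made of members alone had 6 peaks each, at chr19:9058671-9083020 over Ahnak and at chr2:13398651-13422680 in Cubn. These counts rest on the overlaps that define the class and are given without a test.

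Of 20 macrophage genes, 10 were nearest to a member, against 14.8% of all coding genes and 21.6% of those with promoter H3K27ac. Promoter H3K27ac was present at 18 of the 20, RNAPOL2 at 10 and V5 at 1 (Cebpb), beside 58.6%, 53.5% and 16.6% of all coding genes. Near the list lay 1 distal peak with V5 alone and 1 with V5 and RNAPOL2, both nearest to Laptm5. Ctss, the lysosomal protease cathepsin S, had 3 members with scores of 101, 101 and 160, the nearest 4196 bp from its TSS and the smallest gap to a V5 peak 135890 bp. Mertk, a receptor for apoptotic cells, had 3 members (57, 101 and 49), and Laptm5, a lysosomal membrane protein of blood cells, had 3 (34, 140 and 65). Tyrobp, the signaling adaptor of myeloid receptors, had 1 member with a score of 297. Spi1, the gene of the myeloid regulator PU.1, had 1 (65). How far macrophages in the tumors contributed to these peaks was not tested.

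Of 18 endothelial genes, 8 were near a member (14.8% of all coding genes, 21.6% of those with promoter H3K27ac), with 13 members in all, and 11 peaks with V5 alone were near the list. Promoters held H3K27ac at 14, RNAPOL2 at 11 and V5 at none of the 18, beside 58.6%, 53.5% and 16.6% of all coding genes. Erg, an ETS factor of vessels, had 3 members (91, 101 and 129) and 3 peaks with V5 alone. Vwf, the gene of von Willebrand factor, had 3 members (134, 65 and 34), no other distal peak and no promoter peak of any of the 3 kinds. Cldn5, a claudin of tight junctions, had 2 members and 4 peaks with V5 alone, and Cdh5, the gene of VE-cadherin, had 1 member with a score of 249, at 77.8 kb.

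Matrix and fibroblast genes, those of TGF-beta signaling and the YAP and TEAD list are read beside the same shares. These are 14.8% and 21.6% near a member, 16.6% with promoter V5 and 58.6% with promoter H3K27ac. Of 24 matrix genes 11 were near a member (21 members, 6 peaks with V5 alone, 3 with both). Promoters held H3K27ac at 19 and V5 at 4 of the 24. Col6a2 had 4 members with scores of 57, 273, 101 and 82, all upstream of the gene, with a smallest gap to a V5 peak of 78530 bp. Col5a1 had 4 (203, 82, 102 and 91), Col3a1 had 3, and Sparc, a collagen-binding glycoprotein gene, had 2 with a highest score of 450. Of 17 TGF-beta pathway genes 9 were near a member, with 27 members, 10 peaks with V5 alone and 5 with both. Promoters held H3K27ac at 16 and V5 at 6 of the 17. The receptor gene Tgfbr2 had 6 members with scores of 57, 65, 65, 34, 203 and 203. The inhibitory Smad7 had 5, and Smad3 and the inhibitory Smad6 had 4 each. For the YAP and TEAD list, 7 of 16 genes were near 11 members, with 2 each at Wwtr1, Tead1, Amotl2 and Ccn1. Near that list lay 4 peaks with V5 alone, and promoters held H3K27ac at 15 and V5 at 8 of the 16.

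Members and promoter V5 were both present across the CREB and AP1 lists, which are read beside the 14.8% of all coding genes near a member, the 21.6% of those with promoter H3K27ac and the 16.6% with promoter V5. Promoter H3K27ac was present at 19 of 19 and 15 of 16 of their genes. Of 19 CREB pathway genes and targets 8 were near a member, with 39 members, 16 peaks with V5 alone and 23 with both, and V5 marked 14 promoters. Without Pde4d the list had 26 members, 8 peaks with V5 alone and 5 with both. Sik1, a salt-inducible kinase that restrains CREB coactivators, had 6 members scored 82, 74, 100, 249, 74 and 309, Sik3 had 6, and Crtc3, one of those coactivators, had 5 and no V5 at its promoter. Of 16 AP1 genes 6 were near a member, with 17 members and 1 peak with V5 alone, and V5 marked 11 promoters. Fos had 7 members with scores of 41, 150, 129, 220, 34, 101 and 101. The nearest V5 peak lay 1060 to 46430 bp from them. Batf3, without V5 at its promoter, had 4 (74, 140, 74 and 140), Jun 3 and Fosb 1.

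Of 22 melanocyte and neural crest genes 5 were near a member, beside 14.8% of all coding genes, with 9 members and 15 peaks with V5 alone. Sox5, a long gene (954 kb), had 7 of these V5 peaks and 1 member, and without it the list had 8 of each. Across the list, promoter H3K27ac was present at 8 genes, RNAPOL2 at 5 and V5 at 2, beside 58.6%, 53.5% and 16.6% of all coding genes. Of those 8, Sox9, Mitf, S100b and Sox5 were near a member, beside 21.6% of coding genes with promoter H3K27ac. Of the listed genes without it only Dct was near a member, beside 5.07% of coding genes without it. Mitf had 3 members (57, 171 and 49), the nearest of them 450 bp from a V5 peak, and Sox9 had 3 (237, 74 and 85), 160 to 319 kb from its TSS. S100b and the pigment enzyme gene Dct had 1 each.

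The remaining lists are read beside the 14.8% of all coding genes near a member, 21.6% with promoter H3K27ac and 5.07% without it. Of 25 skeletal muscle genes, the host tissue of the injection, 2 were near a member (Mef2c with 2 and Pax7 with 1), promoter H3K27ac was present at 4, RNAPOL2 at 5 and V5 at none. Of 18 lymphocyte genes 1 was near a member (Tbx21), and of 12 adipocyte genes none. Housekeeping genes were near a member in 3 of 20, although all 20 promoters held H3K27ac and RNAPOL2 and 14 held V5. The lists were chosen with earlier results of these data known, so their counts are a description beside the 14.8% of all coding genes.

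**Figure D5:**
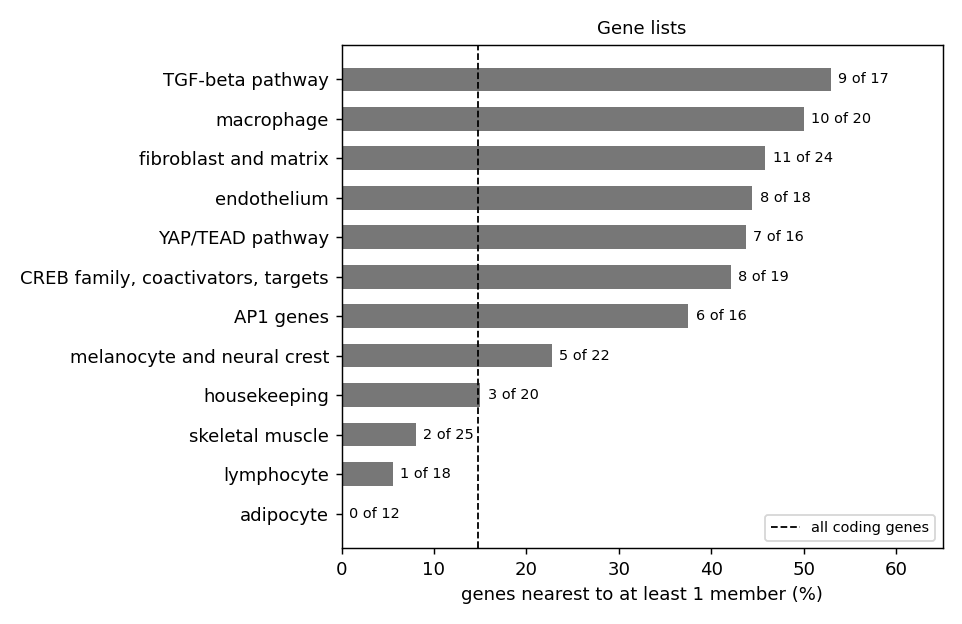
For each of the 12 gene lists the bars give the percentage of genes (x axis) nearest to at least 1 member, and the dashed line marks the 14.8% of all coding genes. TGF-beta pathway genes stand highest with 9 of 17, followed by macrophage genes with 10 of 20, while housekeeping genes (3 of 20) lie at the line and adipocyte genes (0 of 12) at the bottom.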

How the data were processed

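The authors ran ChIP-seq on CCS tumors of mice with antibodies against V5, RNAPOL2 and H3K27ac, beside input chromatin. Per the labels and the methods, reads were aligned with BWA-MEM (version 0.7.10-r789) to mm10, and peaks were called with MACS2 (version 2.2.6) against input, with the broad option for H3K27ac, after which denylisted peaks were removed. The deposited lists hold the position and the score of 10665 V5, 20375 RNAPOL2 and 27552 H3K27ac peaks. The methods state 1 approximate target depth for all libraries and say that replicates were averaged into signal tracks. The scale of the score, how replicates entered the peak lists and the depth reached by each sample are not given in the sources used here. A list without values per sample allows no replicate error, and peaks under a caller's threshold are absent from it, so a peak without V5 or RNAPOL2 is a peak in which none was called.

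TSSs and genes were taken from GENCODE vM21, and sequence from the soft-masked RefSeq GRCm38.p6 genome. Overlap meant at least 1 shared bp. Motifs were searched on both strands of the central 500 bp. Each peak was assigned to the coding gene with the nearest TSS. Shares were compared by Fisher's exact test, two-sided, with Benjamini-Hochberg adjustment over 42 tests, of which 25 passed 0.05. Those on promoter V5 and RNAPOL2 are counted in both the 42 and the 25. They use the lists that chose the members, so they are given as descriptions without a test. Odds ratio intervals used the normal approximation on the log scale, and Wilson intervals cover counting error only, since neighboring peaks are not independent. The named items were the 10 genes nearest to the most members (ties by summed score), the 5 highest-scored and 3 widest members, the 3 stitched regions with the most members, and up to 4 genes per list. Spi1, Cebpb, Sox5, Ttc28 and the Ahnak and Cubn regions were named after their values were seen. The members, gene lists and motifs were chosen with earlier results of these data known. Functions were tested on simulated data. Tests used scipy 1.17.1 and statsmodels 0.14.6 in Python 3.11.15, tables pandas 2.3.3 with numpy 2.4.6, and plots matplotlib 3.10.9.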

Additional observations from a re-analysis of the deposited data

How the results depend on the processing

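No paired analysis was possible because each antibody has 1 list without values per sample, although the labels share replicate numbers. No analysis that leaves out a sample was run, since the lists have no sample values. Peaks are not independent, the lists carry no depth per sample, and the class depends on the calling threshold of all 3 lists. The cause of the changes below was not tested.

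The share of H3K27ac peaks in the class was 27.1% with a 1 kb window, 19.1% with 5 kb, 26.0% with TSSs of protein-coding genes, 28.6% when overlap was judged by the middle base, 21.98% when peaks within 1 kb counted, and 30.8% with the upper 50% of RNAPOL2 and V5 peaks. With the upper 50% of H3K27ac peaks it was 4.27%, with 589 members and 510 nearest genes.

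Motifs past the threshold against V5 peaks numbered 4 with the upper 50% of H3K27ac peaks, 13 over whole peaks and 5 within GC quintiles. Against RNAPOL2 peaks they numbered 7 with the upper 50% of RNAPOL2 and V5 peaks, 12 over whole peaks, 1 in the central 200 bp and 2 within score quintiles, the last an alternative chosen after seeing the data.

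Against V5 peaks, the AP1 odds ratio was 0.685 by the middle base, 0.792 over whole peaks, 1.15 with the upper 50% of RNAPOL2 and V5 peaks and 1.20 within score quintiles, each past the threshold. The repeat share was 1.29 by the middle base, also past it. Over whole peaks the E-box was 0.982 and ETS 0.903. The E-box also lost its call by the middle base (1.07), within GC quintiles (1.07) and with the upper 50% of H3K27ac peaks (1.30), ETS with the last (1.26), MITF in the central 200 bp (0.779), within GC quintiles (0.861) and with the upper 50% of H3K27ac peaks (0.705), and AP-2 within GC quintiles (1.10). Not past it were promoter H3K27ac (1.16) with 1 peak per gene and, with the upper 50% of H3K27ac peaks, the intragenic share (1.05), the repeat share (0.914), promoter H3K27ac (1.10) and TGACGTCA (0.316).

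Against RNAPOL2 peaks, AP1 lost its call by the middle base (1.17) and in the central 200 bp (1.21) and was 0.827, past the threshold, over whole peaks. TGANNTCA passed at 1.19 with coding TSSs, 1.19 by the middle base, 1.62 with the upper 50% of RNAPOL2 and V5 peaks and 0.750 over whole peaks, where TGACGTCA (0.530) and TEAD (0.730) passed too. It was 0.963 in the central 200 bp without passing. TEAD lost its call by the middle base (1.18), in the central 200 bp (1.40) and within score quintiles (1.27). AP-2 was 1.06 within GC quintiles and lost its call in the central 200 bp (0.802) and within score quintiles (0.917). The intragenic share was 1.58, past the threshold, with the upper 50% of RNAPOL2 and V5 peaks, and lost its call with 1 peak per stitched region (0.969), as did the repeat share by the middle base (0.854). Promoter H3K27ac was 1.01 with a 1 kb window, 1.06 with coding TSSs, 1.15 with the upper 50% of RNAPOL2 and V5 peaks, and 0.777 without chromosomes X and Y, where alone of these it passed. Not past the threshold with the upper 50% of H3K27ac peaks, the intragenic share was 1.03, the repeat share 0.913, TGACGTCA 1.06 and AP-2 1.04.

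As descriptions without a test, the odds ratio of promoter RNAPOL2 was 1.10 with 1 peak per gene and 1.18 with the upper 50% of H3K27ac peaks against V5 peaks, and 0.960 with the latter and 0.911 with the upper 50% of RNAPOL2 and V5 peaks against RNAPOL2 peaks. That of promoter V5 was 0.920 with the upper 50% of H3K27ac peaks against RNAPOL2 peaks.

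Over the alternatives tried, another 212 recomputed values of the main results and 99 of single motifs kept their direction and side of the threshold, or their size. The 212 include odds ratios of promoter V5 and RNAPOL2, which use the lists that chose the members and are descriptions only.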

Other observations

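Members were unevenly spread over the chromosomes. Their share of the distal H3K27ac peaks was 55.6% over the autosomes, from 47.8% on chromosome 15 to 67.4% on chromosome 11, and 53.3% on chromosome X (40 of 75). Chromosome 11 also had the most members per Mb of the autosomes (4.25), and chromosome 14 the fewest (1.69). All distal H3K27ac peaks differed in the same direction, with 770 on chromosome 11 (122 Mb) and 411 on chromosome 14 (125 Mb). These shares were not tested.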
